A study of Mus musculus with 95 samples.

Results

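The comparison described here set epithelium against T cells in the medulla of normal mouse thymus. Its members were the control segments that the labels call medullary epithelium or medullary T cells, 22 of the 95 segments of the series. They came as 11 pairs from 3 mice, since each chosen region was collected once under a pan-cytokeratin (PanCK) mask and once under a CD3 mask. The thymic medulla is where developing T cells complete their maturation, and its epithelial cells display a broad range of self antigens that removes or diverts self-reactive T cells. Pan-cytokeratin marks the keratin filaments of epithelial cells, and CD3 is part of the T cell receptor complex. The epithelium forms a mesh between densely packed T cells, so a segment drawn by a mask can also contain neighbouring cells.

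The study profiled fixed, embedded thymus of 4 mice with a Gtf2i L424H knock-in, which develop thymoma, and of 4 control mice. Gtf2i encodes a general transcription factor. Oligonucleotide probes of a whole-transcriptome panel were hybridised to sections, released by light from each segment on a digital spatial profiler and counted by sequencing. All control mice carried floxed Gtf2i without Cre. Mouse 1057 was Gtf2ifl/fl and lay on the slide of mice 1057 and 1059. Mice 1172 and 1143 were Gtf2ifl/wt and shared another slide. The genotype of mouse 1057, its slide and the mouse itself cannot be told apart. The thymoma mice used for comparison were Gtf2ifl/wt Foxn1-Cre/wt, in which Foxn1, a gene that thymic epithelium needs to develop, drives Cre. Mouse 1059 gave no medullary segment, and ages are not stated in the labels. Mouse 1057 gave 5 regions, numbered 002, 003, 004, 005 and 017. Mouse 1172 gave 3, numbered 004, 005 and 006, and mouse 1143 gave 3, numbered 010, 011 and 012.

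The files listed 20175 probe IDs, and no table used here pairs these IDs with genes. The labelled cell types therefore could not be checked against marker genes, gene groups could not be described, and probes are named by ID only. Segments of medullary epithelium held 58162 to 2001298 counts and those of medullary T cells 55900 to 3595278. Mouse 1143 stood apart before any comparison was made. Its 6 segments held 55900 to 230092 counts, with 49.5 to 71.8 counts per nucleus, against 647021 to 3595278 counts in mouse 1057 and 913486 to 2369979 counts in mouse 1172. In the shallowest segment 3 counts corresponded to 53.7 CPM (a probe's counts scaled to a common library total), so that differences of the weaker probes were not detectable in single regions of mouse 1143.

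Epithelial segments were more sparsely nucleated than the T cell segments of the same region in 11 of 11 pairs. In mouse 1057 the epithelial mask held 8.21 to 14.3 nuclei per 1000 µm2, against 27.4 to 30.4 under the T cell mask. In mouse 1172 it held 18.1 to 19.2 nuclei per 1000 µm2, against 24.5 in each T cell segment, and in mouse 1143 it held 18.1 to 19.3, against 23.1 to 24.1. The ranges of the masks did not overlap in any mouse, and the gap was widest in mouse 1057. The median log2 ratio was -0.44 over the 11 pairs (SD 0.541), with p = 0.000977 by an exact two-sided sign-flip permutation over pairs and 0.00244 after Benjamini-Hochberg adjustment over 5 measures. Pairs of 1 mouse are not independent, so p-values over regions are too small, and the 3 mice alone allow no p below 0.25.

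The yield of counts followed area and nuclei differently. Counts per 1000 µm2 were lower under the epithelial mask in 11 of 11 pairs, with a median log2 ratio of -0.49 (SD 0.282) and the same exact permutation p of 0.000977 (0.00244 adjusted). Counts per nucleus had no common direction, since the mice went opposite ways. In mouse 1057 the epithelial segments gave 1249 to 2208 counts per nucleus, against 690 to 1249 in T cell segments, higher in 5 of 5 pairs with a median log2 ratio of 0.84. In mouse 1172 the epithelial segments gave 426 to 690, against 746 to 814 in T cell segments, higher in 0 of 3 pairs with a median of -0.37. In mouse 1143 they gave 56.5 to 61.4, against 49.5 to 71.8 in T cell segments, higher in 1 of 3 pairs. Over all 11 pairs the median was 0.19 (SD 0.645) and the exact permutation p was 0.266 (0.332 adjusted). Without mouse 1172 the median was 0.63 with p = 0.0469 by the same exact permutation test, and without mouse 1057 it was -0.23 with p = 0.0938. Both of these p-values are unadjusted and treat regions of the same mouse as independent, so they are too small. The number of probes detected and the share of counts in the 100 highest probes also did not pass the adjusted threshold. Their exact permutation p-values were 0.617 and 0.0400 (0.617 and 0.0667 adjusted). In this bulk readout the number of cells of a type under a mask and the RNA of each cell cannot be told apart.

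**Figure D1:**
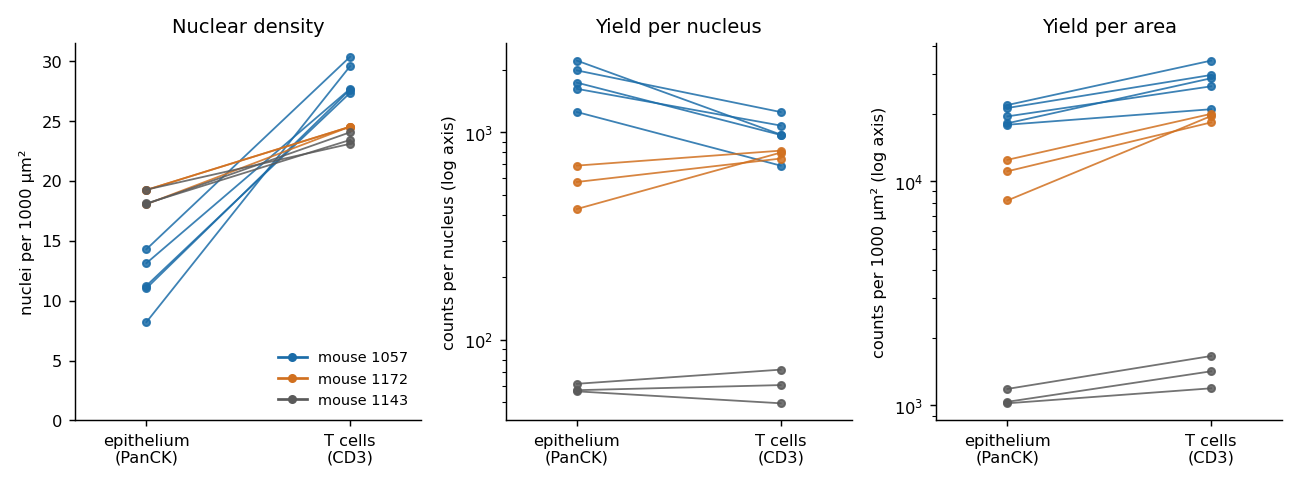
Nuclei per 1000 µm2, counts per nucleus (log axis) and counts per 1000 µm2 (log axis) in the epithelial and the T cell segment of each medullary region; a line joins the 2 segments of a region and colours mark the mouse. All 11 lines run to more nuclei and more counts per area under the T cell mask, while counts per nucleus were higher in epithelium in the 5 regions of mouse 1057 and lower in the 3 of mouse 1172.

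Which probes differed between the masks was asked with counts summed over the regions of each mouse and mask, giving 3 epithelial and 3 T cell libraries. Of 20174 probes tested with edgeR's quasi-likelihood test and mouse as a block, 523 (2.59%) were higher in epithelium and 228 (1.13%) were lower, together 751 or 3.72%, at a Benjamini-Hochberg adjusted p below 0.05. Without the regions of mouse 1143 there were 868 and 317 such probes. Without mouse 1057, which held more regions than any other mouse and most counts, there were 106 and 55. The counts also fell when mouse 1057 lost a single region, number 004 (the one with the most counts), to 302 and 109. DESeq2 called 80 higher and 49 lower. The calls were 0 with limma on mean log2 CPM per mouse (204 higher and 71 lower at an unadjusted p below 0.05), with limma after quantile normalization (619 and 441) and in edgeR without the mouse block (205 and 29).

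The differences were small in size. The 523 probes higher in epithelium had a median log2 fold change of 0.54, a ratio of 1.45, and ranged over 0.30 to 2.00. In 307 of them the log2 fold change exceeded 0.5, in 36 it exceeded 1 and in 6 it exceeded 1.5. The 228 lower probes had a median of -0.46, a ratio of 0.729, and ranged over -0.99 to -0.20. Of these, 80 exceeded 0.5 in size and 0 exceeded 1. Over all tested probes the median was -0.02 and the median size 0.10. The larger differences thus lay on the epithelial side, as the plot of fold change by level shows.

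The probes lower in epithelium were mostly strongly counted ones. When tested probes were ranked by mean CPM and divided into 4 equal groups, the highest group (47.9 CPM and above) held 190 of the 228 lower probes, or 83.3%, and 258 of the 523 higher probes, or 49.3%. The lowest group (up to 26.4 CPM) held 3 of the lower and 37 of the higher probes. Calls depend on depth, and few of the weakest probes were called.

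**Figure D2:**
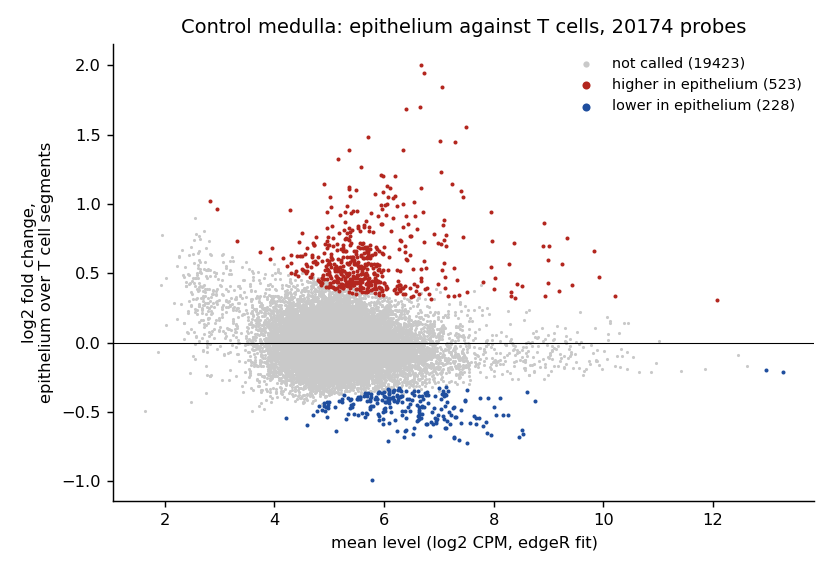
Log2 fold change of epithelium over T cell segments in control medulla against the mean level (log2 CPM of the edgeR fit), 1 point per tested probe, with the 523 probes called higher in red, the 228 called lower in blue and the others in grey. Called higher probes reach 2.00 on the log2 scale, while called lower probes end at -0.99 and lie mostly at higher levels.

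The 3 mice showed the contrast at different sizes. The median log2 difference of the 523 higher probes was 0.67 in mouse 1057, 0.40 in mouse 1172 and 0.34 in mouse 1143. That of the 228 lower probes was -0.52, -0.40 and -0.33 in the same mice. These medians describe probes chosen on the same libraries. Over all 20174 probes the log2 differences of mice 1057 and 1172 had r = 0.358, and r = 0.625 over the 5044 probes of the highest level group. With mouse 1143 the r values over all probes were 0.0728 for mouse 1057 and 0.0546 for mouse 1172. In mouse 1143 the SD of the difference over probes was 0.721, against 0.24 in mouse 1057 and 0.211 in mouse 1172.

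A reading in a mouse that the call had not used is free of that choice. Probes called from mice 1172 and 1143 numbered 106 higher and 55 lower. In mouse 1057 the same sign was found for 95.3% of the higher ones, with a median log2 difference of 0.81, and for 96.4% of the lower ones, with a median of -0.56. Calls from mice 1057 and 1143 numbered 467 higher and 164 lower, and in mouse 1172 94.2% and 90.9% of them had the same sign, with medians of 0.31 and -0.34. Calls from mice 1057 and 1172 numbered 868 higher and 317 lower, and in shallow mouse 1143 63.1% and 64.7% of them had the same sign, with medians of 0.20 and -0.17. Among all probes 44.4% to 55.6% had the sign in question. The direction held for nearly all called probes in both deep mice and for a smaller majority in mouse 1143.

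The same lists were then read region by region. In mouse 1057 the median log2 difference of the probes called higher in the other mice was 0.42 in region 002, 1.06 in region 003, 0.66 in region 004, 0.76 in region 005 and 0.68 in region 017. In mouse 1172 it was 0.29, 0.39 and 0.31 in regions 004, 005 and 006. In mouse 1143 it was 0.26, 0.34 and 0.13 in regions 010, 011 and 012, where the medians of all probes were 0.09, 0.00 and 0.12. In region 012 of mouse 1143 the higher probes therefore lay close to the median of all probes, and regions 003 of mouse 1057 and 005 of mouse 1172 showed the largest difference of their mouse for this list. In mouse 1143 the higher probes had the same sign in 64.5, 56.3 and 59.8% in regions 010, 011 and 012. For all probes these shares were 52.0, 49.4 and 53.0%. The segments of regions 011 and 012 held only 55900 to 86386 counts, and the SD of the difference over all probes was 2.07 and 2.22 there. In the regions of mouse 1172 that SD was 0.300 to 0.326, so the medians of mice 1172 and 1143 differ in precision. For the probes called lower in the other mice the medians in mouse 1057 were -0.33, -0.58, -0.36, -0.40 and -0.70 in regions 002, 003, 004, 005 and 017, so region 017 stood lowest. In mouse 1172 they were -0.29, -0.34 and -0.28 in regions 004, 005 and 006, and in mouse 1143 -0.15, -0.04 and -0.06 in regions 010, 011 and 012.

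Nuclear density moved with the size of the difference of the higher probes in mouse 1057. Region 003, with the largest median, had the sparsest epithelial segment at 8.21 nuclei per 1000 µm2. Region 002, with the smallest, had the densest at 14.3, and regions 004, 005 and 017 lay between at 13.1, 11.2 and 11.0. In mouse 1172 the densities were 19.2, 18.1 and 19.2 in regions 004, 005 and 006, and in mouse 1143 they were 19.3, 18.1 and 18.1 in regions 010, 011 and 012. The part of nuclear density in the difference was not tested, and mouse, slide and density move together between mouse 1057 and the others.

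**Figure D3:**
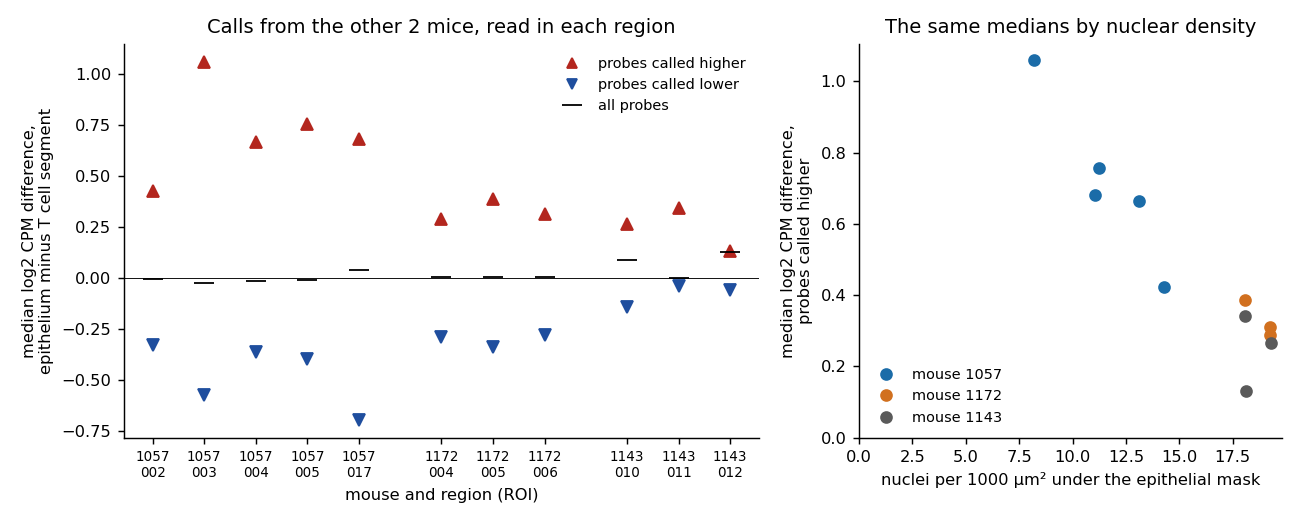
Left, the median log2 CPM difference (epithelium minus T cell segment) in each medullary region of the probes called higher (red) or lower (blue) from the other 2 mice, with the median of all probes as a bar. Right, the medians of the higher probes against the nuclei per 1000 µm2 under the epithelial mask; region 003 of mouse 1057 lies at 8.21 nuclei and 1.06, and all regions of mice 1172 and 1143 lie at 18.1 to 19.3 nuclei and 0.13 to 0.39. Regions 011 and 012 of mouse 1143 are shallow, with an SD over all probes of 2.07 and 2.22.

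The contrast was also tested over the regions of each mouse. With region as a block, edgeR called 667 (3.35%) probes higher and 326 (1.64%) lower of 19924 in the 5 regions of mouse 1057, and 179 (0.895%) and 88 (0.44%) of 19995 in the 3 regions of mouse 1172. In mouse 1143 only 958 probes passed the filter on low counts, of which 13 (1.36%) were called higher and 1 (0.104%) lower. Depth, number of regions and slide differ between these tests and cannot be told apart. Mice 1057 and 1172 shared no libraries, and 135 higher probes were called in both, which is 20.2% of the list of mouse 1057 and 75.4% of that of mouse 1172. Of the lower probes 57 were called in both, 17.5% of the list of mouse 1057 and 64.8% of that of mouse 1172, and 0 probes were called in opposite directions. These p-values concern regions of 1 mouse.

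Whether the contrast differed between mouse 1057 and mouse 1172 was tested over their region pairs, a test added after the data had been seen. The contrast was higher in mouse 1057 for 24 probes (0.12%) and lower for 15 (0.0749%) of 20039, with 1387 at an unadjusted p below 0.05. Of the 523 probes, 21 were among the 24 and 2 among the 15, and their median difference between the mice was 0.23, against -0.01 for all probes. Of the 228 probes, 0 were among the 24 and 1 was among the 15, with a median of -0.10. Since the lists were called from the same mice, these counts are not independent of the calls.

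Regions of 1 mouse also differed under the same mask. For the 422 higher probes above the median level, the highest epithelial segment of mouse 1057 exceeded the lowest by a median of 0.80 on the log2 scale, against 0.52 for all 10087 probes above that level. The T cell segments of the same mouse spread by 0.59 for these probes, against 0.51 for all. In mouse 1172 the epithelial segments spread by 0.40, against 0.34 for all, and the T cell segments by 0.26, against 0.25. The wider spread under the epithelial mask was thus also seen over all probes in that mouse. Its epithelial segments held 913486 to 1072605 counts, against 1673910 to 2369979 in its T cell segments. The part of depth in the spread was not tested. The 213 lower probes above the median level spread by 0.61 under the epithelial and 0.66 under the T cell mask in mouse 1057, and by 0.47 and 0.48 in mouse 1172. A spread over 2 on the log2 scale under the epithelial mask was found in 13 of the 422 probes in mouse 1057 and in 7 in mouse 1172, against 15 and 9 of all 10087. In mouse 1057 the largest epithelial excess lay in region 003 for 232 of the 422 probes, and in mouse 1172 it lay in region 005 for 198. The same share over all probes was not computed, and the 422 were called from sums that include these regions. Over all probes the SD of the log2 difference was also largest in these regions of their mice, at 0.463 and 0.326.

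Probes were named by a rule that asked for an adjusted p below 0.05, a level above the median and the same direction in all 11 region pairs. In mouse 1143 a direction could rest on equal counts of 1 or 2 in both masks, set by the library totals alone, so these are not 11 independent directions. The rule held for 95 higher and 30 lower probes, and the 2 with the largest fold change on each side are given. RTS0071257 had 169, 208 and 58.6 CPM in the epithelium of mice 1057, 1172 and 1143, against 37.5, 52.6 and 40.0 CPM in their T cells. The rule largely fixes the direction within each mouse. The excess of RTS0071257 in epithelium was smallest in shallow mouse 1143, and the groups did not overlap. Its log2 fold change was 2.00 (SE 0.114, adjusted p = 3.64e-11 by edgeR's quasi-likelihood test). The SE here and for the other named probes was derived from the fold change and the test statistic of that fit. Such an SE does not give the spread between mice. The excess was uneven between regions. In mouse 1057 the epithelial segments gave 41.4, 321, 188, 91.3 and 39.7 CPM in regions 002, 003, 004, 005 and 017, against 28.0, 37.1, 40.9, 38.4 and 34.4 CPM in the T cell segments. In mouse 1172 they gave 63.5, 533 and 51.3 CPM in regions 004, 005 and 006, against 39.4, 83.1 and 31.3 CPM in T cell segments. Regions 003 and 005 of these mice carried most of the difference, and regions 002 and 017 of mouse 1057 little of it. In mouse 1143 the 3 epithelial segments held 15, 4 and 2 counts, against 11, 1 and 2 counts in the T cell segments, too few to show a difference in any of these regions.

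RTS0064300 had 311, 134 and 83.8 CPM in the epithelium of mice 1057, 1172 and 1143, against 52.6, 62.9 and 37.1 CPM in their T cells. Each epithelial value lay above all T cell values. The log2 fold change was 1.84 (SE 0.178, adjusted p = 5.05e-07, edgeR), and it was 1.08 without mouse 1057 and 2.42 without mouse 1172. Over the 11 regions the epithelial segments gave 17.2 to 619 CPM with a median of 112, against 15.6 to 80.4 CPM with a median of 47.4 in T cell segments. The highest epithelial value was again that of region 003 of mouse 1057, and in region 012 of mouse 1143 both masks held 1 count.

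Both probes named on the lower side differed less. RTS0070005 had 190, 83.1 and 117 CPM in the epithelium of mice 1057, 1172 and 1143, against 297, 146 and 183 CPM in their T cells. The fold change was -0.72 on the log2 scale (SE 0.0879, adjusted p = 8.1e-06, edgeR). The mice differed in level by more than the masks did, so the ranges of the groups overlapped. Epithelium was lower within every mouse, which the naming rule largely fixes. Over the regions the epithelial segments gave 50.4 to 245 CPM with a median of 129, against 81.8 to 366 CPM with a median of 197 in T cell segments. RTS0078065 had 174, 72.8 and 97.7 CPM in the epithelium of mice 1057, 1172 and 1143, against 291, 111 and 151 CPM in their T cells. The fold change was -0.70 on the log2 scale (SE 0.0892, adjusted p = 1.46e-05, edgeR). Here too the ranges of the groups overlapped, and the order within each mouse was largely fixed by the rule.

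**Figure D4:**
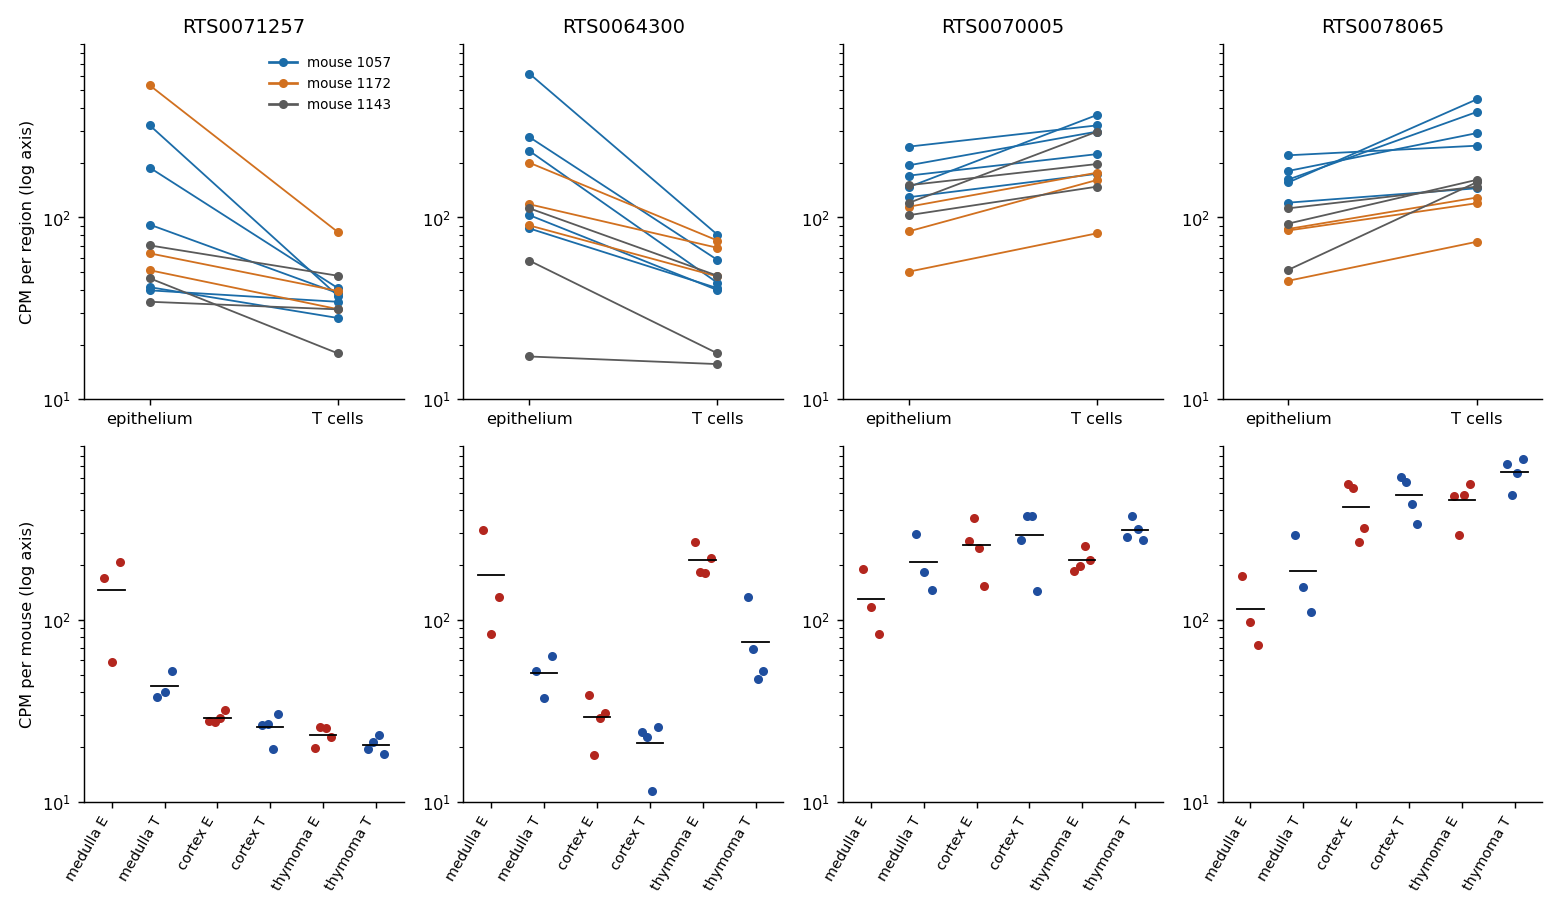
Top, CPM (log axis) of the 4 named probes in the epithelial and T cell segment of each medullary region, joined by a line and coloured by mouse. Bottom, CPM per mouse (log axis) in the epithelium (E, red) and T cell (T, blue) libraries of control medulla, control cortex and thymoma, with the mean as a bar; RTS0071257 has 58.6 to 208 CPM in the 3 epithelial libraries of medulla and at most 32.0 CPM in each library of cortex and thymoma. For RTS0071257 and RTS0064300 the cortical epithelium of mouse 1143 rests on 3 counts.

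How far the contrast belongs to the medulla was examined against the cortex of control mice and against thymoma. In cortex, where immature T cells are selected, edgeR called 596 probes (2.95%) higher in epithelium and 21 (0.104%) lower over 4 mice. Of the 523 probes higher in medullary epithelium, 194 were also called higher in cortical epithelium, which is 37.1% of the medullary list and 32.6% of the cortical one, and 0 were called lower. Their median log2 difference in cortex was 0.22, against -0.02 for all probes. Of the 228 lower probes, 1 was also called lower in cortex and 3 were called higher, with a median of -0.07. In thymoma 2865 probes (14.2%) were called higher in epithelium and 2227 (11%) lower. Of the 523, 413 (79.0%) were called higher in thymoma epithelium, 14.4% of that list, and 2 lower, with a median of 0.48. Of the 228, 155 (68.0%) were called lower, 6.96% of that list, and 8 higher, with a median of -0.29. Higher in epithelium in medulla, cortex and thymoma alike were 189 probes, and 1 probe was lower in all of them.

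The difference between the contrasts was tested as an interaction. Against cortex, in the 3 mice with both zones, the medullary contrast was higher for 93 probes (0.461%) and lower for 121 (0.6%) of 20174, together 214 or 1.06%, with 1552 at an unadjusted p below 0.05. All 93 belonged to the 523, with a median log2 difference of 0.80 in medulla and 0.06 in cortex. Of the 121, 55 were among the probes lower in medullary epithelium, 11 among the higher ones and 55 in neither list, and 67 were called higher in cortical epithelium. Their medians were -0.22 in medulla and 0.41 in cortex. Without mouse 1057 the counts were 2 and 3, without mouse 1172 60 and 26, and without mouse 1143 116 and 186, so the number of probes that differ between the zones rests on both deep mice, on mouse 1057 the more. The lists and the interaction share the medullary libraries, and the overlap is not independent of them.

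Against thymoma the medullary contrast was higher for 81 probes (0.401%) and lower for 165 (0.818%) of 20175, together 246 or 1.22%, with 2226 at an unadjusted p below 0.05. Of the 81, 57 were in the list of 523, with medians of 0.54 in medulla and -0.08 in thymoma over all 81. Of the 165, 159 were called higher in thymoma epithelium and 147 were not called in medulla, with medians of 0.02 in medulla and 0.74 in thymoma. Without mouse 1057 the counts were 7 and 19. Without mouse 1172 they were 72 and 50, so that the larger count changed sides. The higher count was 48 without mouse 1143, 50 without thymoma mouse 1042 and 46 without thymoma mouse 1157. Tissue and slide cannot be told apart in this comparison, although each contrast lies within mice.

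**Figure D5:**
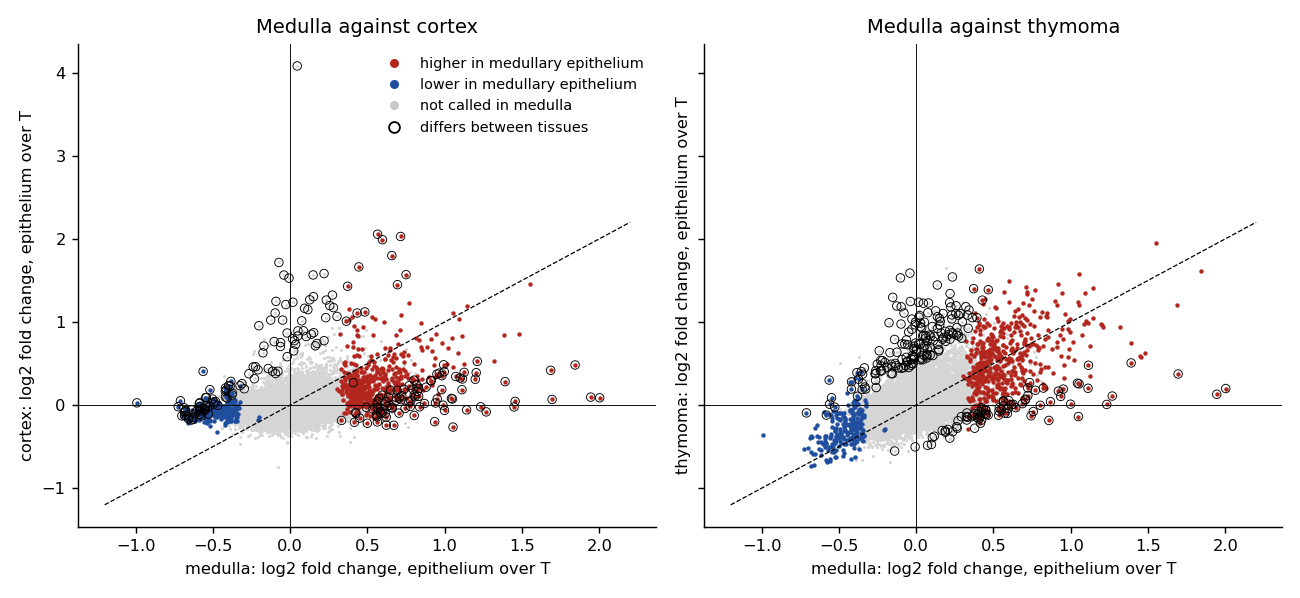
Log2 fold change of epithelium over T cell segments in control cortex (left) and in thymoma (right) against that in control medulla, 1 point per probe, with probes called higher (red) or lower (blue) in medullary epithelium, an open ring on probes whose contrast differs between the tissues and a dashed line of equal change. The red probes centre on 0.22 in cortex and on 0.48 in thymoma, and the blue probes on -0.07 and -0.29.

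The named probes differed in where their contrast appeared. RTS0071257 averaged 145 ± 77.6 CPM in medullary epithelium and 43.4 ± 8.08 CPM in medullary T cells (SD, n = 3 mice each). It averaged 29.0 ± 2.09 CPM in cortical epithelium and 25.8 ± 4.61 CPM in cortical T cells, and 23.4 ± 2.77 CPM in thymoma epithelium and 20.5 ± 2.16 CPM in thymoma T cells (SD, n = 4 mice each). In cortical epithelium the value of mouse 1143, 28.9 CPM, rested on 3 counts, so the small SD there includes a value at the floor. The contrast of RTS0071257 was larger in medulla than in cortex by 1.94 on the log2 scale (adjusted p = 9.88e-13, edgeR) and larger than in thymoma by 1.84 (adjusted p = 6.13e-08, edgeR). RTS0064300 averaged 176 ± 120 CPM in medullary epithelium and 50.9 ± 13.0 CPM in medullary T cells (SD, n = 3 mice each), and 213 ± 40.3 CPM in thymoma epithelium and 75.4 ± 39.5 CPM in thymoma T cells (SD, n = 4 mice each). In cortex it averaged 29.1 ± 8.47 CPM in epithelium, where mouse 1143 again held 3 counts, and 21.0 ± 6.50 CPM in T cells. Its contrast was larger in medulla than in cortex by 1.32 (adjusted p = 0.000195, edgeR), and the test against thymoma did not pass the threshold (0.25, adjusted p = 0.821, edgeR, and -0.53 without mouse 1057). It also had 0 to 172 CPM in control B cell segments, the 0 being that of mouse 1143, where 3 counts equal 47.0 CPM, and 58.3 to 353 CPM in thymoma B cell segments.

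The 2 lower probes had a contrast below 0 in thymoma as well. For RTS0070005 the log2 fold change was -0.53 in thymoma (adjusted p = 0.000268, edgeR) and -0.02 in cortex (adjusted p = 0.952, edgeR), and the medullary contrast was lower than the cortical one by -0.69 (adjusted p = 0.00163, edgeR). For RTS0078065 it was -0.52 in thymoma (adjusted p = 0.000189, edgeR) and -0.13 in cortex (adjusted p = 0.537, edgeR), with a medullary contrast lower than the cortical one by -0.55 (adjusted p = 0.0305, edgeR). Neither passed the test against thymoma, with adjusted p-values of 0.737 and 0.744 (edgeR). RTS0078065 also had higher levels outside the medulla, with 269 to 557 CPM in cortical epithelium and 293 to 558 CPM in thymoma epithelium, against 72.8 to 174 CPM in medullary epithelium. Without mouse 1057 the difference from cortex lost its call for RTS0064300 (0.78), RTS0070005 (-0.65) and RTS0078065 (-0.37), and without mouse 1172 for RTS0070005 (-0.46) and RTS0078065 (-0.41).

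The summed share of counts taken by each list was read in every class of segment. In medullary epithelium the 523 probes took 6.60, 4.61 and 4.08% of counts in mice 1057, 1172 and 1143, against 4.05, 3.41 and 3.07% in medullary T cells. Outside the medulla they took 3.54 to 4.35% in cortical epithelium, 2.49 to 3.00% in cortical T cells, 5.42 to 7.21% in thymoma epithelium and 3.48 to 4.47% in thymoma T cells. In B cell segments, which the lists did not use, the same probes took 4.06 to 6.59% in control and 4.61 to 6.49% in thymoma, above every cortical T cell value. The highest control B cell share, that of mouse 1057 (6.59%), lay beside the 6.60% of its medullary epithelium. This B cell share came from 1 segment of 413591 counts. The lowest, 4.06%, was that of mouse 1143, whose B cell segments together held 63805 counts. Cells of other types under the epithelial mask could not be examined without gene names.

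The 228 probes took 4.30, 4.34 and 1.82% of counts in medullary epithelium of mice 1057, 1172 and 1143, against 5.56, 5.10 and 2.29% in medullary T cells. In cortical epithelium they took 2.56 to 5.32%, in cortical T cells 2.89 to 5.78%, in thymoma epithelium 2.95 to 4.08% and in thymoma T cells 3.80 to 5.14%. Mouse 1143 gave the lowest share in every class of control segment, B cells included. Its depth moved with these low shares, and the part of depth in them was not tested.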

How the data were processed

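Each segment has 1 file of raw probe counts from the authors, who used GeoMx_NGS_Pipeline 2.0.0 and DCC version 0.02, per the file headers. The deposited counts are whole numbers without normalization, and a probe absent from a file was given 0. Nuclei, area, mask, region and genotype came from the labels. Alignment and collapsing of reads are not given in the sources used here. No background was subtracted, since probe IDs do not show which probes are negative controls. Saturation, the percentage of aligned reads beyond the counts, was 79.1 to 90.1%. Whether PCR copies remain among the counts is not given, and floors of 3 counts cover counting error only.

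Members and lists were chosen with earlier results of these data known. Counts were summed per mouse and mask, filtered by filterByExpr, scaled by TMM and tested with edgeR 4.0.16 (R 4.3.3, quasi-likelihood, mouse as a block, Benjamini-Hochberg adjusted p below 0.05). CPM are counts scaled to a common total, and log2 differences within mice or regions used a prior count of 2. Pairing comes from the labels, which give both masks of a mouse and region. The epithelial and T cell library of a mouse departed alike from their mask means, with r of 0.715, 0.621 and 0.683, against -0.655 to 0.422 with other mice. Departures from a mean over the mice sum to 0, so the lower r with other mice is partly built in. These r concern summed libraries of mice and do not test the pairing of regions. Within a mouse, regions were the block. Yield was tested by exact two-sided sign flips of 11 pairs (2048 arrangements). Named probes were the 2 largest and 2 smallest fold changes among probes past the threshold, above the median level and in 1 direction in 11 of 11 regions. Alternatives used DESeq2 1.42.0 and limma 3.58.1, other scalings and filters, thinned counts and left-out mice and regions. The test between mice 1057 and 1172, thinning to the depth of mouse 1143, leaving out its regions 011 and 012 and the shares of counts in other classes were chosen after seeing the data. The edgeR fits on summed libraries were first run on simulated data, and the outcome is not given here. The fits over regions, the test between mice 1057 and 1172 and the sign flips were not run in this way. How the fits perform for differences as small as most of those called was not tested.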

Additional observations from a re-analysis of the deposited data

Results flagged for a closer look

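The contrast of epithelium against T cells differed between the medulla and other tissue by an interaction test for 93 probes higher and 121 lower than in cortex, and for 81 higher and 165 lower than in thymoma (edgeR, adjusted p below 0.05). Among the named probes the difference from cortex was 1.94 on the log2 scale for RTS0071257, 1.32 for RTS0064300, -0.69 for RTS0070005 and -0.55 for RTS0078065. For RTS0071257 the difference from thymoma was 1.84. Between mouse 1057 and mouse 1172 the contrast was higher for 24 probes and lower for 15 over region pairs, with genotype and slide also different between these mice. Counts per nucleus had a median log2 ratio of epithelium over T cells of 0.84 in mouse 1057, above 0 in all 5 pairs, and of -0.37 in mouse 1172, below 0 in all 3 pairs. That difference between the mice was not tested.

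Dixon's criterion for an outlying value, which chance alone meets in about 1 group in 20, was applied to 56 groups. A group held the values of 4 mice in 1 class of segment, or those of the 5 regions of mouse 1057. In 4 groups, all of them groups of mice, 1 mouse lay far from the others. The 228 probes lower in medullary epithelium took 2.56% of counts in cortical epithelium of mouse 1143, against 4.85 to 5.32% in the other mice. The 523 higher probes took 5.42% in thymoma epithelium of mouse 1082, against 7.01 to 7.21% in the other mice. RTS0070005 had 115 CPM in B cell segments of control mouse 1059, against 47.0 to 52.6 CPM in the other mice, and 59.5 CPM in those of thymoma mouse 1157, against 83.2 to 87.6 CPM in the other mice. Among the control values, the 47.0 CPM of mouse 1143 rested on 3 counts, at the floor. The 50.8 CPM of mouse 1057 rested on 21 counts in 1 segment.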

How the results depend on the processing

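Against 523 higher and 228 lower probes, RLE, upper-quartile scaling, no filter, a filter at the median CPM and thinning within mice called 466 to 542 and 181 to 240, of which 404 to 523 and 177 to 228 were among them. DESeq2 called 80 and 49, all among the 523 and 228. With quantile normalization and limma, with limma on mean log2 CPM and in the fit with no replicate block the counts were 0 and 0, with 619 and 441, 204 and 71, and 205 and 29 at an unadjusted p below 0.05. With 22 segments and the region pair as replicate block, 704 and 435 were called. Thinning mice 1057 and 1172 to the depth of mouse 1143 called 54 and 18, of which 53 and 14 were among the 523 and 228, and leaving out regions 011 and 012 of mouse 1143 gave 500 and 209. Over left-out mice and regions the counts ran over 106 to 868 and 55 to 317.

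The interaction counts were 0 and 0 with no replicate block against cortex (107 at an unadjusted p below 0.05, edgeR) and against thymoma (232). Over left-out mice they ran over 2 to 116 higher and 3 to 186 lower against cortex, and 7 to 79 and 19 to 218 against thymoma. Other scalings changed them by less than 1.5 times. The median log2 ratio of counts per nucleus, 0.19, was -0.49 per area and ran over -0.23 to 0.63 over left-out mice. Read as the mean over region pairs, the share with the same sign was 92.7% for lower probes in mouse 1057, 84.8 and 84.4% for higher and lower probes in mouse 1172, and 54.8% for lower probes in mouse 1143.

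Each named probe kept its direction in 26 alternatives and lost its call in 3, with adjusted p-values of 0.759, 0.743 and 1 (quantile limma, limma on means and no replicate block). The log2 fold changes there were 1.58, 1.13 and 1.73 for RTS0071257, 1.56, 1.32 and 1.78 for RTS0064300, -0.68, -0.70 and -0.70 for RTS0070005, and -0.64, -0.76 and -0.70 for RTS0078065. The cause of these changes was not tested. Named probes were chosen for 1 direction in all 11 region pairs, so the kept direction was largely set by that choice. Depth limits mouse 1143, where a median probe had 12 counts in summed epithelium and 11 in T cells. The number of mice (3) and probes without gene names limit what the contrast can show.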
